A study of Saccharomyces cerevisiae with 6 samples.

Results

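The genes described here encode 30 proteins of the small subunit of the yeast mitochondrial ribosome, out of 5656 genes measured on the arrays. They were picked by gene symbol as proteins of this subunit. The rule uses no measured value, although it was set with earlier results of these data known. Each of the 30 was represented by 1 probe set, which the platform's table assigned to that gene alone, and all 30 were bright enough to be tested. The 6 arrays measured RNA of budding yeast, *Saccharomyces cerevisiae*: 3 of a wild-type strain and 3 of a strain whose histone H2B is marked as altered at residues 3 to 32. That notation stands for a deletion within the amino-terminal tail of H2B, the histone that pairs with H2A in the nucleosome. Both strains were grown in YPD, a rich glucose medium, to mid-log phase at an optical density of 0.5 to 0.7. The sources used here do not give the strain background, the number of clones or the way the H2B gene is carried. By its label, wild-type array 3 also served as control for further H2B mutants.

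The mitochondrial ribosome translates the few mRNAs of the mitochondrial genome, most of which encode membrane subunits of the respiratory chain and of ATP synthase. Its small subunit binds the mRNA and decodes it, with a head, a body and a platform built on a ribosomal RNA of mitochondrial origin. All but 1 of its proteins are encoded in the nucleus, made in the cytosol and imported. Many have a counterpart in the bacterial ribosome, and the others are specific to mitochondria. Yeast that ferments glucose needs little respiration, and genes for mitochondrial proteins are then expressed less than on carbon sources that must be respired.

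The array values are MAS5 signals, a linear intensity per probe set scaled by the authors, and each is relative to the total labelled RNA of its sample. Fewer mRNA copies per cell and a changed total of RNA can therefore not be told apart. Median signals were 28.7 to 31 on arrays 1 and 2 of both groups and 40 and 40.5 on arrays 3. Spiked hybridisation controls averaged 98.8 and 102.3 on arrays 3, against 345.3 to 455.2 on the other arrays. HTB1, the H2B gene measured here, read 1371.8, 1138.4 and 1191 on wild-type arrays 1, 2 and 3, and 16.1, 19.4 and 15.2 on the mutant arrays. The groups are thus separated by the signal of this H2B gene. The labels name H2B without naming the altered gene. The sources used here do not say whether the HTB1 probe set lies in the altered stretch.

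Small subunit genes lay slightly lower in the H2B mutant, by a median log2 difference of -0.17 over the 30 genes against -0.06 over all 4525 tested genes. MRP51, MRP2, MRPS8 and MRP1 had the largest differences downward, and MRP10 and MRPS5 were the genes with the largest difference upward. Of the 30 genes, 24 had a lower fitted mean in the mutant, and 21 did after quantile normalization or scaling of the arrays to a common median. Over all tested genes, 63% had a lower mean without such scaling. After quantile normalization the median was -0.12 for the members and -0.03 for all tested genes. After scaling to a common median the values were -0.13 and -0.02. Leaving out single arrays moved the members' median from -0.37 without mutant array 3 to 0.06 without wild-type array 3. Without both of these arrays it was -0.18. The 30 differences, all on the scale of log2(signal + 2.7), ran from -0.53 to 0.18.

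Whether any of these differences passed a test depended on the fit. With the strain as the only term, limma's moderated test with Benjamini-Hochberg adjustment over all 4525 genes passed 0 of the 30 genes in either direction, and each had an adjusted p of 1. In that fit 0 of the 30 had an unadjusted p under 0.05 either, beside 1.46% of all tested genes on the lower and 1.04% on the higher side. Over all tested genes it called 0.0221% lower, which is HTB1 alone, and 0% higher. With the replicate number as a block, which compares same-numbered arrays, 3 of the 30 fell, 0 rose and 27 did not pass, while 1.39% of all tested genes were called lower and 0.884% higher. A further 6 of the 30 had an unadjusted p under 0.05 in this fit, all lower. Together these 9 genes are 30% of the members, beside 12.1% of all tested genes that had such a p and were lower. Of the members 0 had such a p and were higher, beside 5.17% of all tested genes. In the text that follows, "fell" refers to the fit with the block at an adjusted threshold of 0.05.

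**Figure D1:**
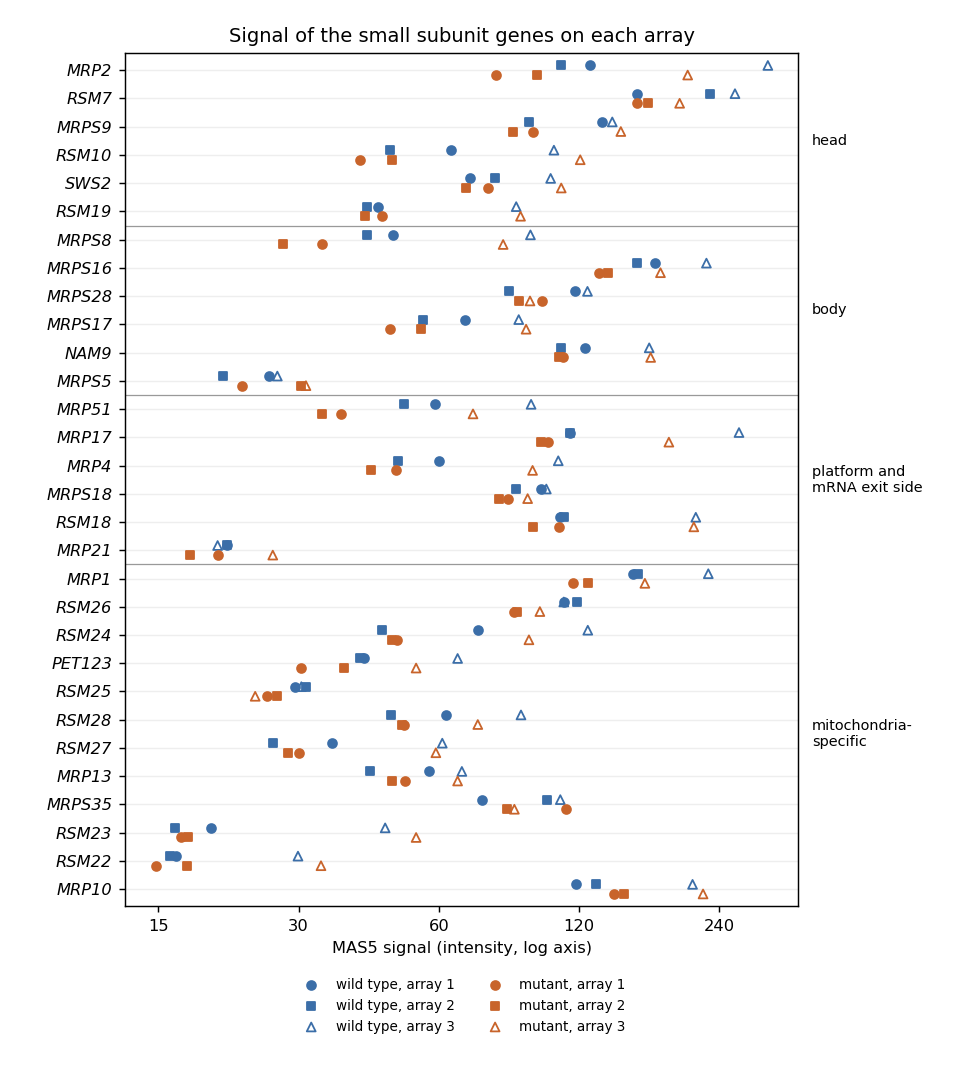
Signal of each of the 30 genes (rows, grouped by place in the subunit) on the 6 arrays; the horizontal axis is the MAS5 signal on a log scale, blue marks wild type, orange the mutant, and open triangles mark arrays 3. Arrays 3 lie to the right of arrays 1 and 2 in both groups for 25 genes, and the mutant lies wholly to the left of wild type for RSM26 and RSM25. Distances between rows also reflect the probe sets and are not compared.

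MRP51 lies on the mRNA exit side of the subunit and corresponds to bacterial bS1. Mutations in MRP51 were found as suppressors of defects in the leaders of mitochondrial mRNAs for cytochrome oxidase subunits. Its signal was 58.9, 50.6 and 94.6 on wild-type arrays 1, 2 and 3, and 37, 33.7 and 71 on the mutant arrays. Each mutant array was below the wild-type array of the same number, but mutant array 3 was above wild-type arrays 1 and 2, so the groups overlap. MRP51 fell by 30.7% (log2 -0.53, SE 0.12 with the block and 0.34 without it, limma adjusted p = 0.0415 with the block and 1 without it).

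MRP2 belongs to the head and corresponds to bacterial uS14. Its signal was 126.3, 109.9 and 304.8 in wild type and 79.4, 97.2 and 205.1 in the mutant. The mutant was lower in each pair, by a log2 difference of -0.65, -0.17 and -0.57 in pairs 1, 2 and 3, while the arrays of 1 strain spread more widely than the strains differed. MRP2 fell by 27.5% (log2 -0.46, SE 0.11 with the block and 0.46 without it, limma adjusted p = 0.0481 with the block and 1 without it).

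MRP1 is specific to mitochondria and sits in the head, where it pairs with RSM26. Both proteins belong to the family of iron and manganese superoxide dismutases. MRP1 read 156.2, 160.7 and 227.1 in wild type and 116.1, 125.2 and 166 in the mutant. Of the 3 mutant arrays, array 3 alone reached above the lowest wild-type array. The differences in the 3 pairs were close to each other (log2 -0.42, -0.35 and -0.45), and MRP1 fell by 24.5% (log2 -0.41, SE 0.10 with the block and 0.20 without it, limma adjusted p = 0.0457 with the block and 1 without it).

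These 3 calls lay close to the threshold. With arrays 3 of both strains treated as a batch in place of the block, the same 3 genes were the members called lower, with adjusted p of 0.0377 for MRP51, 0.0377 for MRP2 and 0.0366 for MRP1, beside 1.64% of all tested genes called lower and 0.994% higher. Within replicates 1 and 2 alone 0 members passed in limma (adjusted p = 0.102 for MRP51, 0.21 for MRP2 and 0.168 for MRP1), beside 0.729% of all tested genes called lower and 0.442% higher. With the block, leaving out pair 1 left MRP1 (adjusted p = 0.0417) and added RSM7 (adjusted p = 0.0221), while MRP51 was at 0.0658 and MRP2 at 0.0757. In that fit 3.01% of all tested genes were called lower. Leaving out pair 2 or pair 3 left 0 members called, with the lowest adjusted p of the 3 genes at 0.0514 for MRP2 without pair 2. Of all tested genes 0.287% were called lower without pair 2 and 0.155% without pair 3, so few calls were made at all.

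RSM26, the partner of MRP1, and RSM25, another mitochondria-specific protein, were the members whose groups did not overlap. RSM26 read 111.4, 118.6 and 111.2 in wild type and 87, 88.3 and 98.8 in the mutant (log2 -0.31, limma adjusted p = 0.158 with the block). RSM25 read 29.4, 31.1 and 30.4 in wild type and 25.7, 26.9 and 24.2 in the mutant (log2 -0.22, adjusted p = 0.442 with the block). Neither passed. Among all tested genes the mutant lay wholly below wild type in 4.99% and wholly above it in 2.65%, so 2 of 30 lower and 0 of 30 higher are near the background. The SD within wild type and within the mutant was 4.22 and 6.47 for RSM26 and 0.854 and 1.35 for RSM25 (n = 3 each), and neither gene passed for a difference between arrays 3 and the others.

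**Figure D2:**
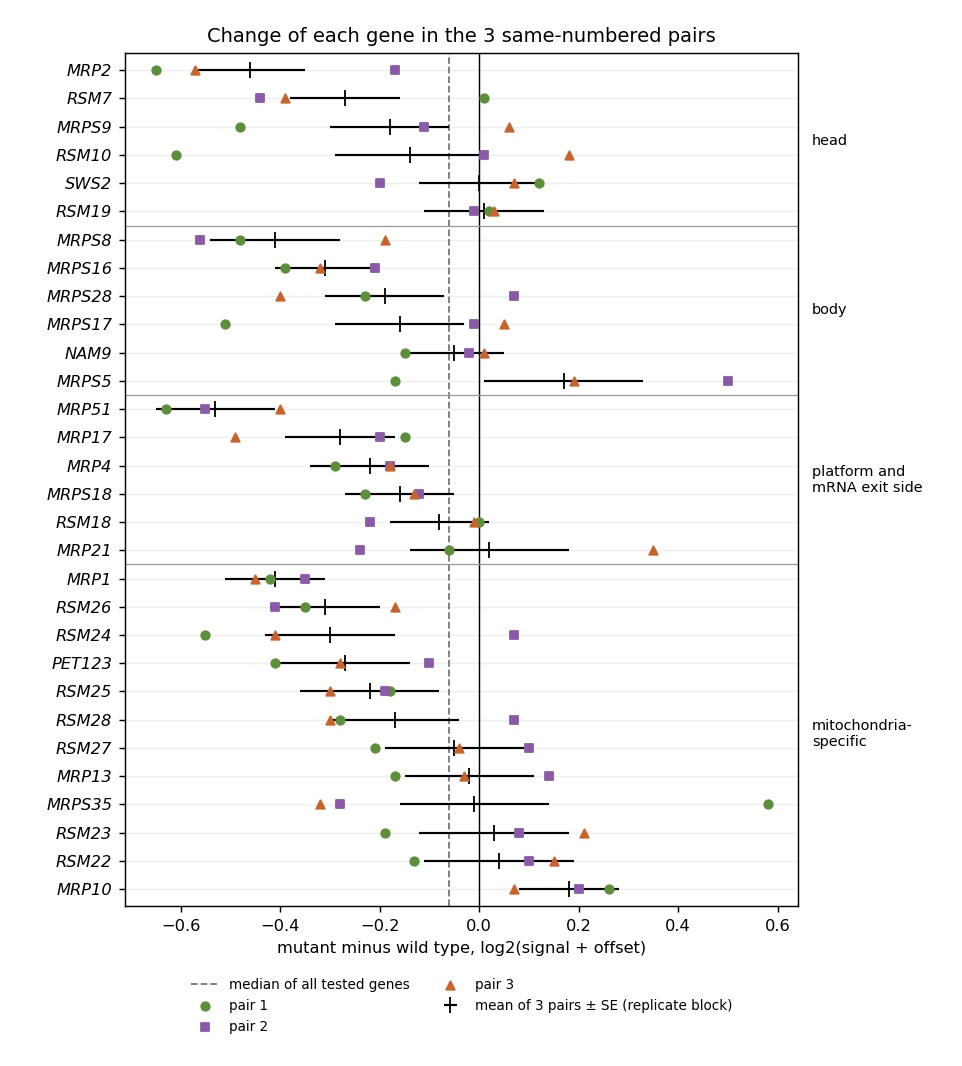
Mutant minus wild type on the scale of log2(signal + 2.7) for each of the 30 genes in the 3 same-numbered pairs (green, purple and orange marks), with the mean ± SE of the fit with the replicate block in black and the median of all tested genes (-0.06) dashed. The 3 pairs lie close together for MRP1 and on both sides of 0 for MRPS35 and MRPS5.

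Across the 3 pairs, 12 of the 30 genes were lower in the mutant every time and 1 was higher every time. This compares with 27.4% of all tested genes that were lower in every pair and 11.5% that were higher. The other members split, with 11 lower in 2 pairs and 6 lower in 1 pair. The median difference of the members was -0.22 in pair 1, -0.12 in pair 2 and -0.15 in pair 3, against -0.06, -0.08 and -0.03 over all tested genes. Pair 1 had the most members on the lower side, 25 of 30, with 20 in pair 2 and 19 in pair 3.

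The genes of head proteins with bacterial counterparts ran from -0.46 for MRP2 to 0.01 for RSM19, and MRP2 alone of these passed with the block. RSM7, the counterpart of uS7, whose bacterial form starts assembly of the head, read 159.4, 229.5 and 259.1 in wild type and 160, 168.9 and 197.1 in the mutant. It was equal in pair 1 and lower in the other pairs (log2 -0.27, limma adjusted p = 0.21 with the block). RSM10, the counterpart of uS10, read 63.6, 47.1 and 105.9 against 40.6, 47.6 and 120.6. Its lower value in the mutant thus rested on pair 1 (log2 -0.61), and pairs 2 and 3 stood at 0.01 and 0.18. RSM19, the counterpart of uS19, was almost the same in both strains, at 44.5, 42.1 and 87.9 against 45.2, 41.7 and 89.8 (log2 0.01, SE 0.12 with the block). SWS2, the counterpart of uS13 at the contact with the large subunit, read 70.1, 79.1 and 104.2 against 76.3, 68.6 and 109.8, and its fitted difference was 0.00 with an SE of 0.12. MRPS9, the counterpart of uS9, had a log2 difference of -0.18.

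In the body, MRPS8 and MRPS16 were lower in all pairs without passing. MRPS8, the counterpart of the rRNA-binding protein uS8, read 47.9, 42 and 94.3 in wild type and 33.6, 27.7 and 82.4 in the mutant (log2 -0.41, limma adjusted p = 0.12 with the block). MRPS16, the counterpart of bS16, read 174.2, 160 and 225 against 132.2, 138.1 and 179.3 (log2 -0.31, adjusted p = 0.119 with the block). For both genes, mutant arrays 1 and 2 lay below wild-type arrays 1 and 2. NAM9, the counterpart of the decoding protein uS4 and first known as a suppressor of nonsense mutations in mitochondrial genes, differed by -0.05 (SE 0.10 with the block). MRPS17 and MRPS28, the counterparts of uS17 and uS15, differed by -0.16 and -0.19, with pairs on both sides of 0. MRPS5, the counterpart of uS5, lay in the other direction: 25.9, 20.6 and 27 in wild type against 22.7, 30.3 and 31.1 in the mutant (log2 0.17, adjusted p = 0.627 with the block), lower in pair 1 and higher in pairs 2 and 3.

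On the platform and mRNA exit side, 5 of 6 genes were lower in every pair, namely MRP51, MRP17, MRP4, MRPS18 and RSM18, but MRP51 alone of these passed. MRP17, the counterpart of bS6, read 114.9, 114.9 and 264.3 against 103.1, 99.4 and 186.9 (log2 -0.28, limma adjusted p = 0.192 with the block). MRP4, the counterpart of uS2, differed by -0.22 and MRPS18, the counterpart of uS11, by -0.16. RSM18, the counterpart of bS18, differed by -0.08, and its values in pairs 1 and 3 were almost the same in both strains (108.9 against 108.6, and 213.5 against 211.4). The sixth gene, MRP21, the counterpart of bS21, read 21.1, 21.1 and 20.1 in wild type and 20.1, 17.5 and 26.4 in the mutant. Its mutant array 3 was the highest of the 6, its other mutant arrays were not above wild type, and the fitted difference was 0.02.

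The 12 mitochondria-specific proteins had a median difference of -0.11, and 4 of them were lower in every pair: MRP1, RSM26, RSM25 and PET123. PET123, which has been tied to MRP1 by genetic interaction, read 41.4, 40.6 and 65.8 against 30.4, 37.6 and 53.6 (log2 -0.27, limma adjusted p = 0.31 with the block). RSM24 differed by -0.30 and RSM28, known from suppressors of leader mutations in a mitochondrial mRNA, by -0.17; in both, pair 2 was slightly higher in the mutant (0.07). RSM27 (-0.05) and MRP13 (-0.02) had means near equality, and MRP13 turned to 0.04 with quantile normalization and 0.02 with scaling to a common median.

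MRPS35 was the least uniform member. It read 74.3, 102.5 and 109.3 in wild type and 112.5, 83.9 and 87.1 in the mutant. The mutant was higher in pair 1 by 0.58 and lower in pairs 2 and 3 by -0.28 and -0.32, for a mean of -0.01 that turned to 0.03 under either scaling. RSM23, the yeast counterpart of the human protein DAP3, read 19.5, 16.3 and 46 against 16.8, 17.4 and 53.6. RSM22, a protein related to methyltransferases, read 16.4, 15.9 and 29.9 against 14.8, 17.3 and 33.5. For RSM23 and RSM22 the mutant was lower in pair 1 and higher in pairs 2 and 3, and the mean differences were 0.03 and 0.04.

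MRP10, a small cysteine-rich protein of the twin-CX9C type, was the member that was higher in every pair. It read 118, 130.6 and 210.1 in wild type and 142.2, 150.1 and 221.3 in the mutant. Both mutant arrays 1 and 2 were above both wild-type arrays of those numbers, and mutant array 3 was above wild-type array 3. The log2 difference was 0.18 (SE 0.10 with the block, limma adjusted p = 0.37), so it did not pass.

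**Figure D3:**
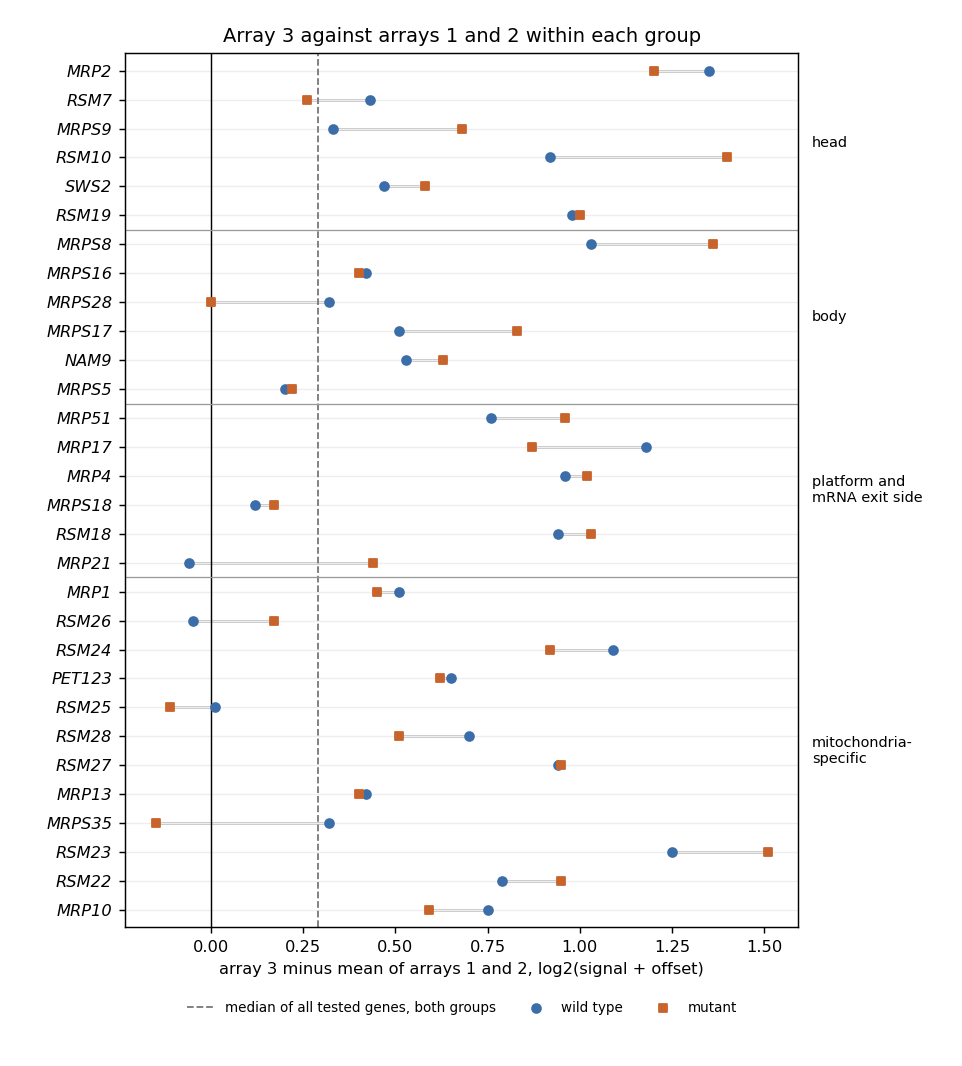
Array 3 minus the mean of arrays 1 and 2 within wild type (blue circles) and within the mutant (orange squares), on the scale of log2(signal + 2.7), for each of the 30 genes; the dashed line is the median of all tested genes (0.29). MRP2, MRPS8 and RSM23 lie above 1 in both strains, and RSM25 lies close to 0 in both.

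Most members read higher on arrays 3 of both strains than on arrays 1 and 2, by an amount that depended on the scaling. In a fit with the strain and arrays 3 as terms, examined after the data were seen, 23 of the 30 genes were higher on arrays 3 and 0 lower (limma, adjusted over all tested genes), where 48.7% of all tested genes were higher and 10.8% lower. The median difference of the members was 0.62, which is 1.54-fold, against 0.29 over all tested genes. It was not particular to the small subunit. Large subunit genes had a median of 0.56, with 36 of 44 higher and 0 lower. Mitochondrial aminoacyl-tRNA synthetases and translational activators stood at 0.55 and 0.57, and translation factors and ribosome assembly genes at 0.29 and 0.39. After quantile normalization 14 members were higher and 1 lower, beside 23.9% of all tested genes higher and 913 of 4525 lower. After scaling to a common median 12 members were higher and 2 lower, beside 16.2% of all tested genes higher and 1468 of 4525 lower. In each of the 3 scalings 23 of the 30 lay above the median of all tested genes. Scaling to a common median multiplies each array by 1 factor, so it could hardly change this count. The labels do not say what sets arrays 3 apart, and the part of the hybridisation in this difference was not tested.

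This difference was not uniform over the subunit's genes. RSM23 (log2 1.38), MRP2 (1.27), MRPS8 (1.19), RSM10 (1.16) and MRP17 (1.03) had the largest values, each with an SE of 0.11 to 0.15. The 7 genes that did not pass were MRP21, MRPS5, MRPS18, MRPS28, MRPS35, RSM25 and RSM26, with values from -0.05 for RSM25 to 0.21 for MRPS5. MRP1 and RSM26, which form a pair in the head, stood at 0.48 (SE 0.10) and 0.06 (SE 0.11). The array 3 signal was above arrays 1 and 2 in both strains for 25 members, beside 58.4% of all tested genes. With the replicates kept apart in this way, mutant arrays 1 and 2 were both below wild-type arrays 1 and 2, and mutant array 3 below wild-type array 3, for 12 members, beside 22.6% of all tested genes. These are the same 12 members that were lower in every pair, so this count is not separate from that one. Among the 44 large subunit genes 26 had this order. The reverse order held for MRP10 alone of the members and for 0 large subunit genes, beside 9.02% of all tested genes.

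Small subunit genes outside the member list had a median log2 difference of -0.10 over 3 tested genes. The members stood at -0.17 and all tested genes at -0.06. MRPS12, the counterpart of the decoding protein uS12 and the chromosomal neighbour of RSM19, read 186.7, 211.2 and 253.7 in wild type and 187.7, 173.1 and 205.2 in the mutant (log2 -0.19, limma adjusted p = 0.34 with the block). EHD3 and FYV4, which are also parts of the yeast subunit, differed by -0.10 and -0.04. VAR1, the subunit protein encoded in the mitochondrial genome, was not tested. Its brighter probe set read 0.1, 0.2 and 1.4 in wild type and 0.3, 0.4 and 2.1 in the mutant, at the floor of the arrays.

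**Figure D4:**
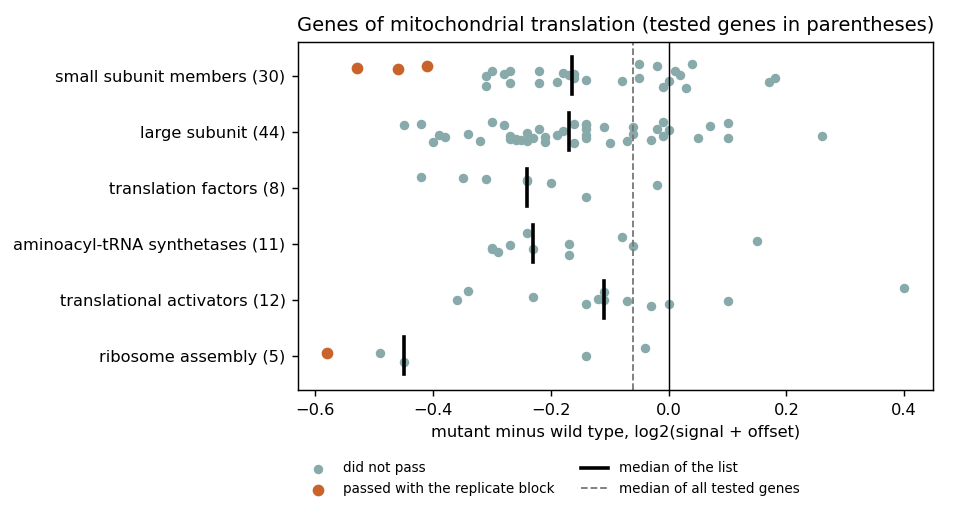
Mutant minus wild type on the scale of log2(signal + 2.7) for each tested gene of 6 lists of mitochondrial translation (rows, number of tested genes in parentheses); points are genes with vertical scatter for legibility, orange points passed with the replicate block, black bars are list medians and the dashed line is the median of all tested genes. The 4 orange points are MRP51, MRP2, MRP1 and GEP3.

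The other genes of mitochondrial translation were set beside the small subunit, against the same 1.39% of all tested genes that fell. Of 44 large subunit genes 0 fell and 0 rose, with a median of -0.17, equal to that of the small subunit at this rounding. In the large subunit 28 of 44 (63.6%) were lower in every pair, beside 40% of the members and 27.4% of all tested genes. With the block, 15 of the 44 (34.1%) were lower with an unadjusted limma p under 0.05, and 1 was higher. The lower share was 30% for the members and 12.1% for all tested genes. MRPL8, MRPL44 and MRPL7 had the smallest p there, with log2 differences of -0.39, -0.42 and -0.45 (limma adjusted p = 0.0781, 0.0841 and 0.0914 with the block). The difference between small and large subunit was not tested.

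Of 8 tested translation factors 0 passed, with a median of -0.24, and 7 were lower in every pair. Among them the initiation factor gene IFM1 differed by -0.42 and the elongation factor gene MEF1 by -0.35, while TUF1, the elongation factor that delivers tRNA, differed by -0.02. Of 11 aminoacyl-tRNA synthetases (median -0.23) and 12 translational activators of single mitochondrial mRNAs (median -0.11) 0 passed. Of 5 tested ribosome assembly genes 1 fell and 0 rose. This was GEP3, also called MTG3, which is needed to process the ribosomal RNA of the small subunit. It read 52.7, 52.4 and 61.6 in wild type and 28.6, 34.4 and 47.8 in the mutant, with no overlap, and fell by 33.1% (log2 -0.58, SE 0.14, adjusted p = 0.0415 with the block and 1 without it). In the same list the helicase gene MRH4 and the GTPase gene MTG2 differed by -0.49 and -0.45 (adjusted p = 0.0827 and 0.156 with the block).

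Regulators tied to such genes were measured in part. HAP4, the activating subunit of the HAP complex that turns on respiratory genes, read 127.8, 175.8 and 72.3 in wild type and 98.4, 89.5 and 61.7 in the mutant (log2 -0.51, limma adjusted p = 0.0623 with the block). It was lower in every pair, and unlike most members it was lowest on array 3 of each strain. Within replicates 1 and 2 alone HAP4 passed narrowly in limma (log2 -0.66, adjusted p = 0.0478). In that fit 0.729% of all tested genes were called lower. HAP2 and HAP3, which bind DNA in that complex, differed by -0.42 and 0.00. HAP5, another gene of that complex, was too dim to be tested, at 17.5, 20.1 and 22.8 against 10.9, 17.7 and 24.1. PUF3, which binds the mRNAs of many mitochondrial proteins, was too dim to be tested, at 12.6, 14.8 and 18.7 against 13.3, 13.2 and 18.6.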

How the data were processed

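Per the submitters' processing notes, the authors made the deposited values, a linear intensity per probe set, with MAS5. The sources used here do not give its version, settings or detection calls. The 2% trimmed means of the 6 arrays lay between 122 and 123.8, so the values were used without further scaling.

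Of 9335 probe sets, 60 controls were left out, and the 6504 with 1 gene entered; symbols were updated through the R64 reference table. The brightest probe set stood for a gene. Before log2, 2.7 was added to each value (the 10th percentile without controls), which understates changes of dim genes. The 1131 genes with a mean log2 value under the 20th percentile were left out. The other 4525 were fitted with limma 3.58.1 in R 4.3.3 (eBayes with a trend), two-sided, adjusted by Benjamini-Hochberg at 0.05. The main fit held the strain only. The steps were tested on simulated data. Same-numbered arrays shared a deviation there by construction, so this cannot show that the deposited arrays are paired.

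Both groups carry replicate numbers 1 to 3 in the labels. Over all tested genes, arrays with the same number deviated together from their group means (correlations of 0.52, 0.59 and 0.86), so the numbers were taken to pair the arrays and the fit with the block is given beside the main one. Arrays 1 and 2 correlated as well when crossed (0.51 and 0.65), so their pairing rests on the labels. That fit has 2 residual degrees of freedom per gene against 12.5 from the variance prior. Without pair 1 the prior gave 77.4, so the p-values of that fit rest mostly on the spread pooled over genes. The labels do not call the replicates separate cultures; p-values then measure only these samples' spread, possibly technical, and the number of arrays limits the precision.

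The members and the gene lists were chosen with earlier results of these data known. All members could be named. Values on every array are given for members that were called, did not overlap between strains, were brightest or dimmest, or were higher in the mutant in at least 2 pairs, and for others picked after their values were seen. Outside the members, HTB1, the remaining small subunit genes and called genes of the lists were to be named. MRPL8, MRPL44, MRPL7, IFM1, MEF1, TUF1, MRH4, MTG2 and the regulators were named after their values were seen. Sequences and motif searches were not used here.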

Additional observations from a re-analysis of the deposited data

How the results depend on the processing

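With the strain only, all tested genes gave 1 lower and 0 higher call, with 1 higher under quantile normalization and 0 to 1 higher and 1 lower without single arrays. The replicate block moved this to 63 lower and 40 higher, and to the same counts with an offset of 16. It gave 95 and 86 with quantile normalization, 115 and 101 with scaling to a common median, 136 and 71 without pair 1, 13 and 12 without pair 2, and 7 and 8 without pair 3. A batch of arrays 3 gave 74 and 45, and replicates 1 and 2 alone 33 and 20. The members called lower moved from 0 to 3 with the block, under each of those scalings and offset, and with the batch, and to 2 without pair 1; 0 members were called higher in every setting run. The block gave 1 call lower in the related lists, against 0 in the main fit. Calls of members on arrays 3 moved from 23 higher and 0 lower to 14 and 1 with quantile normalization and 12 and 2 with scaling to a common median. Over all tested genes 48.7% were higher without scaling, 23.9% with quantile normalization and 16.2% with scaling to a common median. The genes called lower there numbered 489, 913 and 1468. The median log2 difference of the members ran from -0.37 to 0.06 when single arrays were left out without the block. It was 0.06 without wild-type array 3, -0.29 without wild-type array 2, -0.09 without mutant array 1, -0.05 without mutant array 2 and -0.37 without mutant array 3; in these fits arrays 3 weigh unequally on the strains. The same fits turned the sign of 16 members: MRP10 (-0.02 to 0.43), MRP13 (-0.19 to 0.12), MRP17 (-0.57 to 0.11), MRP21 (-0.13 to 0.13), MRP4 (-0.56 to 0.10), MRPS17 (-0.43 to 0.03), MRPS35 (-0.17 to 0.10), NAM9 (-0.26 to 0.12), RSM10 (-0.61 to 0.17), RSM18 (-0.42 to 0.23), RSM19 (-0.32 to 0.34), RSM22 (-0.27 to 0.31), RSM23 (-0.47 to 0.45), RSM24 (-0.64 to 0.06), RSM27 (-0.37 to 0.26) and RSM28 (-0.38 to 0.06). None of these members passed in the fits that turned its sign. SWS2, whose difference in the main fit rounds to 0.00, was not counted among them and ran from -0.20 to 0.15.

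Other settings turned the sign of members near 0, and the cause was not tested. MRP13 was at 0.04 and 0.02 under quantile normalization and median scaling, with or without the block, and at 0.06 with the block without pair 1. MRPS35 was at 0.03 under both scalings, at 0.15 in replicates 1 and 2 with or without the block, and at 0.13 with the block without pair 2. In replicates 1 and 2 alone, with or without the block, MRP21 was at -0.15, RSM22 at -0.01 and RSM23 at -0.05. With the block without pair 1, MRPS17 was at 0.02, RSM10 at 0.10 and RSM27 at 0.03. The filter at the 40th percentile left 24 members tested. Dim probe sets such as those of RSM22, MRP21 and RSM25 limit how small a change can be seen.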
